A study of Mus musculus with 21 samples.

Results

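Olfactory receptor genes, which carry the symbol Olfr in the mouse, were followed through 18 lists of single-nucleotide variants (SNVs). A variant was taken when its region was not intergenic and any gene named for it began with Olfr. This gave 83 distinct sites of the 19181 in all lists. The 10 lists of embryonic stem cells (ESCs) held 49 Olfr sites in 234 calls, of 4358 sites in all, and the 8 tumour lists held 35 Olfr sites in 157 calls, of 15030 sites. A call is one site in one list. Of the 67 Olfr symbols, 66 stood in RefSeq's gene table for GRCm38.p6, and all 84 site entries lay within the matched gene.

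Olfactory receptors are G-protein-coupled receptors that bind odorants on the cilia of olfactory sensory neurons. They signal through the olfactory G protein and cyclic AMP, and a mature neuron expresses a single receptor allele. The coding sequence usually lies in one exon, and the genes stand in clusters of related copies that arose by tandem duplication. The lists report DNA, so they say nothing of whether any receptor was expressed, and no cell-type marker could be checked in them.

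All samples carry the strain name C57BL6X129S6F1. The 5 ESC conditions had 2 libraries each, numbered 3 and 5 in their labels, and all of them received 1000 IU of mouse LIF, a cytokine that maintains ESCs. In 2iL-F the cells grew without feeders in N2B27 with 3 µM Chir99021, a GSK3 inhibitor, and 1 µM PD0325901, a MEK inhibitor, and 2iL was the same medium over feeders. A2iL combined 3 µM Chir99021 with 1.5 µM CGP77675, a Src inhibitor, and LCDM combined 3 µM Chir99021 with Dim and Mih at 2 µM each, both in N2B27 over feeders. SL was 15% serum over feeders in KO-DMEM. The tumours came from mice made from ESCs by tetraploid complementation: 1 A2iL-P14, 3 A2iL-P9, 2 LCDM-P9, 1 2iL-F-P9 and 1 2iL-P9. The labels do not explain P9, P14, or the numbers 3 and 5, and nothing says that 2 libraries of a condition came from separate lines, so p-values cover the spread between libraries, which may be technical. The assay of the tumours is unsettled, since the series title names exome sequencing and its design text names ATAC-seq.

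Each ESC library was called against the fibroblast control (MEF) and each tumour against the blood control WT-2. An ESC list held 1762 to 1858 calls, of which 1041 to 1108 were assigned to genes. A tumour list held 9752 to 10325 calls, apart from LCDM-P9 tumour 2 with 3634, in which the median alternative-allele fraction of the other genes was 0.833 against 0.431 to 0.438 in the other 7 tumours. Results for tumours are given with and without that library where it matters. The header names of the 2iL-P9 and 2iL-F-P9 tumours do not match their labels, so these 2 may be exchanged. No 2 calls of an ESC list lay within 10 kb of each other, so a list shows at most 1 call per 10 kb and a site can be missing because a neighbour was kept. The allele fraction is the share of reads with the alternative base. A site missing from a list has no depth there, and no upper limit on its fraction can be given.

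Sequence around 3 of the calls places them in their genes, and is shown because they lie at the start of the reading frame or in front of it, where RefSeq's promoter table for GRCm38.p6 reaches. Each runs 5′ to 3′ along the gene, which is on the minus strand in all of them, and the capital marks the called base. The Olfr462 run is chr11:87889845-87889894 and begins at the start codon. The Olfr113 run is chr17:37575372-37575421 and also begins at the start codon. The Olfr102 run is chr17:37314422-37314451 and spans the annotated start of the transcript, the called base lying just inside it.
Olfr462: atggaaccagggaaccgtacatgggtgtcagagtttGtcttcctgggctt
Olfr113: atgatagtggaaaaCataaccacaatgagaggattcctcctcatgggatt
Olfr102: atctatggctagaacGactggttaacatgc
In Olfr462 the call is G37A, counted from the first coding base, and replaces valine with isoleucine (V13I). In Olfr113 the call is C15T and is synonymous (N5N). The Olfr102 call is c.-54G>A.

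The annotation holds 1428 Olfr genes, of which 1110 are protein-coding. Split wherever neighbours stand more than 1 Mb apart, they form 65 groups, and 18 of these held an ESC site, 15 a tumour site and 8 both. Sites fell in 40 of the annotated genes in ESCs (2.80%) and in 28 in tumours (1.96%). Over all 21900 protein-coding genes of RefSeq the shares were 7.201% in ESCs and 15.6% in tumours. The bases differ, since the 1428 Olfr genes include 317 pseudogenes, and the difference between these shares was not tested. Sites of both sets were found in 3 genes, Olfr130, Olfr320 and Olfr322, which are 7.5% of the ESC genes and 10.7% of the tumour genes. The overlap between the sets over all genes is not given here, so these percentages have no base to be set against.

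Chromosomes 2, 7 and 9 carry 850 of the Olfr genes (59.5%), but held 14 of the 40 ESC genes (35%) and 11 of the 28 tumour genes (39.3%). On chromosome 2, 8 of 377 genes had an ESC site and 1 a tumour site, whereas on chromosome 7 it was 3 of 294 in ESCs and 8 in tumours. Chromosome 11, with 104 genes, held 8 ESC genes with 12 sites and 3 tumour genes with 3 sites. Chromosome 17, with 64 genes, held 4 ESC genes with 5 sites and 5 tumour genes with 10 sites. Chromosome 10 had 80 annotated genes and a site in neither set. Capture and read mapping may differ between these genes and were not measured here, and no test was made between chromosomes.

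**Figure D1:**
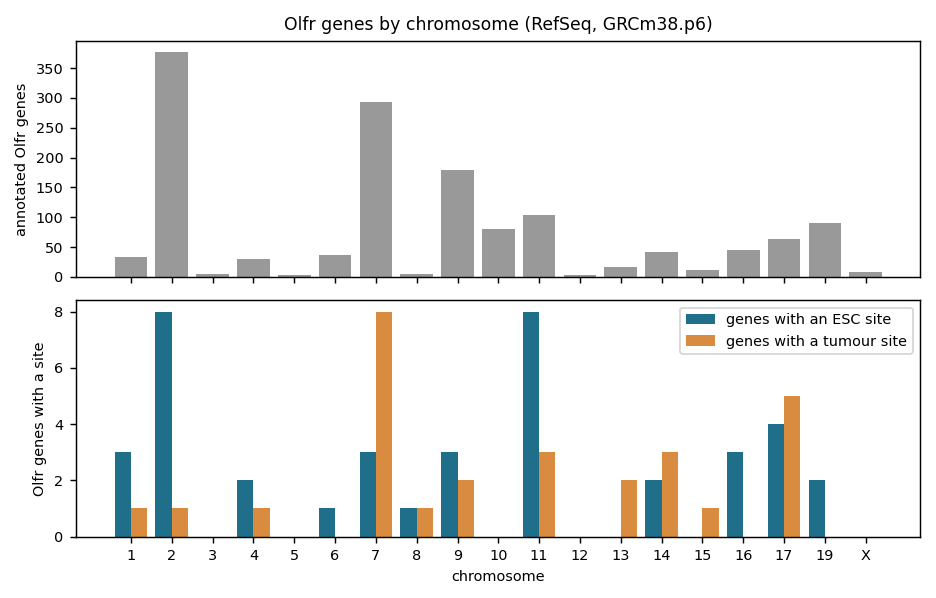
Olfr genes by chromosome. The upper bars give the number of annotated Olfr genes, and the lower bars the number of genes with an ESC site (blue) or a tumour site (orange). Chromosomes 2 and 11 each hold 8 genes with an ESC site although they carry 377 and 104 annotated genes, and chromosome 7 holds 8 genes with a tumour site.

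The group with the most ESC sites was on chromosome 11 between 58454915 and 59614225, where 7 of 26 Olfr genes carried 9 ESC sites and 2 carried a tumour site each. Of these ESC sites, those of Olfr328, Olfr322, Olfr320, Olfr318 and Olfr312 lay in annotated segmental duplications, which are stretches with a near-identical copy elsewhere. The group with the most tumour sites was on chromosome 17 between 37085191 and 38336097, next to the major histocompatibility complex, where 5 of 58 Olfr genes carried 10 tumour sites and 3 carried 4 ESC sites. Olfr617 and Olfr69 lay in the chromosome 7 group that encloses the beta-globin genes and holds the class I receptors, the kind shared with fish. That group counts 158 genes and had no tumour site.

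Among the 49 ESC sites, 24 were synonymous, 23 were missense, 1 in Olfr915 had an unknown consequence and 1 was in the 3′ untranslated region of Olfr318. Among the 35 tumour sites, 16 were synonymous, 17 were missense, 1 was the 5′ untranslated site of Olfr102 and 1 was intronic in Olfr287. No stop was gained or lost at any Olfr site of either set, against 8 stop changes at 685 coding sites of other genes in ESCs and 11 at 3555 in tumours. With 47 and 33 coding Olfr sites these counts are too small to show a difference. Transitions made up 67.3% of the ESC Olfr sites and 68.6% of the tumour ones. No Olfr site of either set lay in a repeat.

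In ESCs 12 of the 49 sites (24.5%) were called in all 10 libraries, 25 in 2 to 9 libraries and 12 in a single one. Among coding sites, 25.5% of the Olfr ones and 29.5% of those of other genes were called in all 10. A single library held 23.4% of the coding sites in both cases. The allele fraction divided the Olfr sites. Of the 12 called everywhere, 9 had a median fraction of at least 0.1. At 30 of the 32 sites called in 5 libraries or fewer every fraction was below 0.1. A detection limit moves with depth and fraction, so sharing and fraction are not separate measurements. None of the 49 sites had a dbSNP identifier, as with every ESC call deposited.

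**Figure D2:**
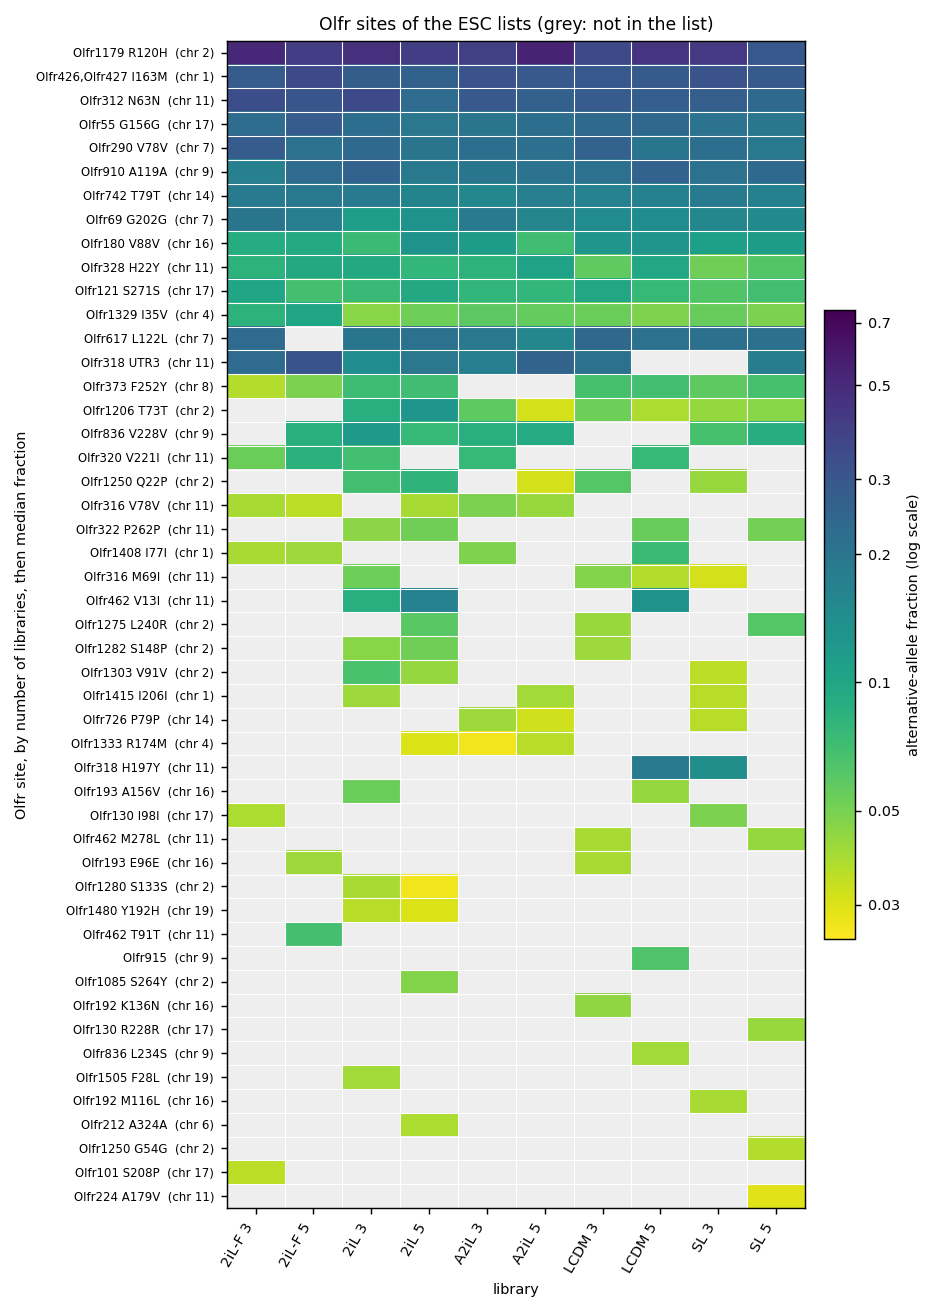
Alternative-allele fraction (colour, log scale) of the 49 ESC Olfr sites in the 10 libraries. Rows are sites, sorted by the number of libraries and then by median fraction, columns are libraries by condition, and grey means that the site is not in that list. The 12 sites at the top are called in all libraries, the 12 at the bottom in a single one.

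The site with the highest fraction in all libraries was R120H of Olfr1179 at position 88402574 of chromosome 2. Its fraction was 0.507 and 0.402 in 2iL-F, 0.467 and 0.398 in 2iL, 0.392 and 0.532 in A2iL, 0.353 and 0.444 in LCDM, and 0.429 and 0.295 in SL, at depths of 63 to 108 reads. The conditions overlapped. I163M, assigned jointly to Olfr426 and Olfr427 on chromosome 1, ranged from 0.262 to 0.355 with a median of 0.288. N63N of Olfr312 on chromosome 11 ranged from 0.227 to 0.350 with a median of 0.278. These are the sites at which the alternative base came closest to the share of a heterozygous variant.

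The next 6 sites were synonymous and had median fractions between 0.1 and 0.3. G156G of Olfr55 had fractions of 0.195 to 0.277 (median 0.2185), in a segmental duplication with an identity of 98.01% to its copy, the highest among the ESC sites. V78V of Olfr290 had 0.190 to 0.280 (median 0.2175), and A119A of Olfr910 had 0.170 to 0.258 (median 0.2105). T79T of Olfr742 was narrow at 0.155 to 0.189, at depths of 478 to 697 reads. G202G of Olfr69 had 0.111 to 0.201 and V88V of Olfr180 0.071 to 0.130.

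At 3 sites the call was in all 10 libraries at a low fraction. H22Y of Olfr328 had 0.052 to 0.105 (median 0.083), and S271S of Olfr121 had 0.063 to 0.1 (median 0.078). I35V of Olfr1329 was at 0.083 and 0.1 in 2iL-F, 0.046 and 0.053 in 2iL, 0.059 and 0.056 in A2iL, 0.054 and 0.048 in LCDM, and 0.055 and 0.049 in SL, at depths of 333 to 525 reads. At Olfr1329 both 2iL-F libraries lay above the other 8. That separation was seen after the values were known and was not tested. The fibroblast control held 1 alternative read at Olfr290, Olfr69 and Olfr180, and none at the other 9 sites.

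Segmental duplications held 18 of the 49 ESC sites (36.7%), against 31.2% of the sites of other genes. The identities at the Olfr sites were 89.6 to 98.01%. In all 18 the copy was on the same chromosome, 5.67 to 84.9 kb away. Missense changes were 11 of these 18 and synonymous ones 6. Reads from such copies can be placed on each other, so these sites are the less certain ones.

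More than 1 ESC site was found in 8 genes. Olfr462 had 3, at M278L, T91T and V13I, and Olfr1250, Olfr130, Olfr192, Olfr193, Olfr316, Olfr318 and Olfr836 had 2 each. In none of them did a library carry 2 sites of the gene, which the spacing of the lists imposes. Olfr318 shows it: its 3′ untranslated site was listed in 8 libraries and H197Y, 361 bp away, in the other 2, so that every library had 1 of them. M69I and V78V of Olfr316, 27 bp apart, were listed in 4 and 5 libraries, and V228V and L234S of Olfr836, 17 bp apart, in 7 and 1. The fractions of Olfr318 were 0.143 to 0.309 at the first site and 0.182 and 0.140 at H197Y. Over all 49 sites there were 256 instances of a site missing from a library, and in 61 (23.8%) that library had another call within 10 kb.

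The culture conditions differed in the number of Olfr calls. The counts were 20 and 20 in 2iL-F, 29 and 29 in 2iL, 21 and 21 in A2iL, 23 and 24 in LCDM, and 24 and 23 in SL. Both libraries of a condition lay within 1 call of each other, and the 2iL libraries lay above all others. The F statistic was set against all 945 ways to form 5 pairs of libraries, an exact permutation test that is one-sided by construction, and gave p = 0.00529. As a share of gene-assigned calls the libraries ranged from 1.83% in 2iL-F to 2.64% in 2iL, with an exact p of 0.00317. Outside segmental duplications and repeats there were 12 and 11 Olfr calls in 2iL-F, 16 and 18 in 2iL, 13 and 14 in A2iL, 13 and 14 in LCDM, and 16 and 15 in SL, with an exact F test p of 0.00635, so that SL library 3 equalled the lower 2iL library.

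2iL averaged 29 ± 0 Olfr calls (SD, n = 2) and the other 8 libraries 22, a difference of 7. The exact two-sided permutation test gave p = 0.0222, the smallest that 2 against 8 libraries allow, and 0.111 after Benjamini-Hochberg adjustment over the 5 conditions. No condition passed that adjustment. 2iL-F averaged 20 ± 0 (SD, n = 2) and the others 24.25, a difference of -4.25 with an exact p of 0.0444, adjusted 0.111. Without feeders 2iL-F had 9 fewer Olfr calls than 2iL. With 2 libraries against 2, an exact two-sided test cannot go below 0.333, and that value was reached.

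The counts differed among calls of low fraction. Below a fraction of 0.1, a limit set after the data were seen, there were 9 and 10 Olfr calls in 2iL-F, 18 and 16 in 2iL, 10 and 10 in A2iL, 12 and 12 in LCDM, and 13 and 12 in SL, with an exact F test p of 0.00952. At 0.1 and above each library had 10 to 13 calls, and the exact F test gave p = 0.778. Over all calls of the lists, the mean was 1834 in 2iL and 1807 in the other 8 libraries (exact p = 0.267). Vomeronasal receptor genes (Vmn1r and Vmn2r), the pheromone receptors of a separate organ, had 47 to 60 calls per library with an exact F test p of 0.810, and zinc finger genes (Zfp) had 16 to 21 with p = 0.907. These families were counted at all fractions, and counts of low-fraction calls in other genes are not given here. The low-fraction difference therefore cannot be called particular to Olfr genes. Whether Olfr genes differ from these families in their response to the condition was not tested.

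Depth at the 12 sites called everywhere also differed between conditions, with an exact F test p of 0.0434. Its median was 224 and 242.5 reads in 2iL-F, 263.5 and 261.5 in 2iL, 321.5 and 313.5 in A2iL, 211 and 242 in LCDM, and 288.5 and 239.5 in SL. The deepest libraries, those of A2iL, had 10 low-fraction Olfr calls each, and the 2iL libraries with 16 and 18 were of middle depth. Whether depth bears on the number of low-fraction calls was not tested.

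**Figure D3:**
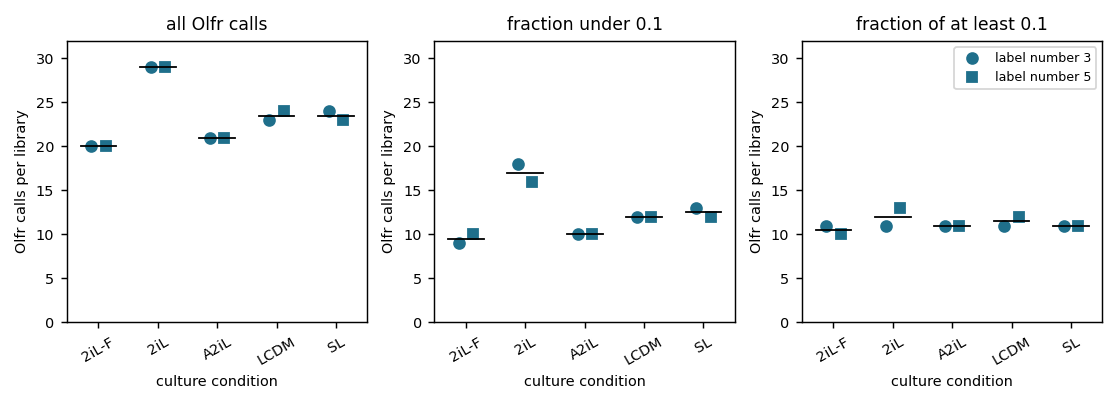
Olfr calls per ESC library by culture condition, for all calls (left), calls with an allele fraction under 0.1 (middle) and at least 0.1 (right). Points are libraries (circle, label number 3; square, label number 5) and lines are condition means; the 2iL libraries have 29 calls each, and at fractions of at least 0.1 all libraries have 10 to 13.

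2iL listed more of the less shared sites. Its libraries held 24 calls at sites listed in 5 libraries or fewer, against 16 in LCDM, 14 in SL and 10 each in A2iL and 2iL-F. Of the sites listed in 5 libraries or fewer, 7 were in both 2iL libraries, against 3 each in the 2iL-F and A2iL pairs, 1 in the LCDM pair and 0 in the SL pair. The 7 were Q22P of Olfr1250, S133S of Olfr1280, S148P of Olfr1282, V91V of Olfr1303, P262P of Olfr322, V13I of Olfr462 and Y192H of Olfr1480. Olfr1280, Olfr1282 and Olfr1303 stand in the same group of 47 Olfr genes on chromosome 2, between 111230853 and 112167982. These counts rest on sites picked for their spread over libraries and carry no test.

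V13I of Olfr462, the substitution shown in the sequence above, was at 7 of 80 reads and 10 of 60 in 2iL, fractions of 0.088 and 0.167, and at 9 of 68 reads in LCDM library 5, a fraction of 0.132. It was the only one of the 7 with a fraction over 0.1. Y192H of Olfr1480, on chromosome 19 at 13530248, was at 8 of 224 and 7 of 235 reads in 2iL, with 95% Wilson intervals of 0.0182 to 0.0689 and 0.0145 to 0.0602, which cover counting error only. S133S of Olfr1280 was at 12 of 309 and 9 of 337 reads in 2iL. The control held no alternative read in 250 and 406 reads at those sites. These sites of Olfr1480 and Olfr1280 were the only ones that a single condition listed in both its libraries.

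In all, 14 sites were restricted to 1 condition: 5 to 2iL, 4 to SL, 3 to LCDM, 2 to 2iL-F and 0 to A2iL. Of these, 12 were in a single library. Such sites were 24.5% of the Olfr sites and 34.5% of the sites of other genes. The share restricted to 1 condition among other genes is not given here. Private missense sites numbered 7. A179V of Olfr224 had 8 of 273 reads in SL library 5, and F28L of Olfr1505 had 7 of 174 in 2iL library 3. S264Y of Olfr1085 had 6 of 127 reads in 2iL library 5, with a Wilson interval of 0.0218 to 0.0992. The others had 4 or 5 reads each: L234S of Olfr836 in LCDM library 5, K136N of Olfr192 in LCDM library 3, M116L of Olfr192 in SL library 3, and S208P of Olfr101 in 2iL-F library 3. Each of these 7 rests on at most 8 alternative reads.

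On average, the Olfr sites of libraries of the same condition overlapped more than those of different conditions, but not in every condition. The Jaccard index, shared sites over the union of 2 lists, averaged 0.661 in the 5 same-condition pairs and 0.554 in the 40 other pairs. The difference of 0.107 had an exact two-sided permutation p of 0.00635. By condition the index was 0.826 in A2iL, 0.739 in 2iL-F, 0.706 in 2iL, and 0.516 in both LCDM and SL. The 2iL, LCDM and SL pairs fell within the range of 0.452 to 0.708 of the other pairs. Those of LCDM and SL lay below the mean of 0.554 of the other pairs. The index over the sites of other genes is not given here. Among calls with a fraction of at least 0.1 the difference was -0.00348 (exact p = 0.879), and below 0.1 it was 0.128 (exact p = 0.00952). The median fraction of the Olfr calls ranged from 0.065 to 0.135 over the libraries and the exact F test between conditions gave p = 0.146. That p was 0.0339 without 2iL-F library 5 and 0.037 among calls with no alternative read in the control.

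Within every ESC library the Olfr calls differed from the calls of other genes in fraction, duplication and consequence. The median fraction averaged 0.0977 ± 0.0208 for Olfr and 0.265 ± 0.0127 for other genes (SD, n = 10), lower for Olfr in 10 of 10 libraries, with an exact sign-flip permutation p of 0.00195, the smallest that 10 libraries allow. Segmental duplications held 39.2 ± 4.49% of the Olfr calls and 30.8 ± 0.898% of the others, higher in 10 of 10 (exact p = 0.00195). Protein-changing calls were 38.9 ± 7.45% of the coding Olfr calls and 53.0 ± 1.02% of the coding calls of other genes, lower in 10 of 10 (exact p = 0.00195). Among calls with no alternative read in the control, the difference in segmental duplications was 16.2 points in place of 8.44 (exact p = 0.00195). That in protein-changing calls was -6.76 in place of -14.1 (exact p = 0.0273). With a depth of at least 20 reads the difference in segmental duplications was 4.98 points (exact sign-flip p = 0.0137). At that depth Olfr was lower in A2iL library 5 (33.3% against 34.3%) and SL library 3 (33.3% against 34.7%), and higher in every other library. Among exonic calls it was lower in A2iL library 5 only (30% against 31.2%). The libraries share most sites, so these tests cover the spread over libraries and not over sites. Counted once per site, protein-changing sites were 48.9% of 47 coding Olfr sites and 55.2% of 685 others. Segmental duplications held 36.7% of the Olfr sites and 31.2% of those of other genes, and 36.2% against 32.8% among coding sites.

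Depth differed as well. Coding Olfr calls had a median depth of 196 to 310.5 reads per ESC library and other coding calls 84 to 118, a ratio of 2.03 to 2.73 (exact p = 0.00195). Sites with a median fraction below 0.1 were 36 of the 49 Olfr sites (73.5%), 38.1% of the coding sites of other genes and 35.04% of the Vmn sites. Vmn sites lay in segmental duplications in 85.5% and Olfr sites in 36.7%. Outside segmental duplications and repeats the difference in median fraction was -0.187, and among coding calls of both kinds -0.120, against -0.167 over all calls (exact p = 0.00195 in each case).

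**Figure D4:**
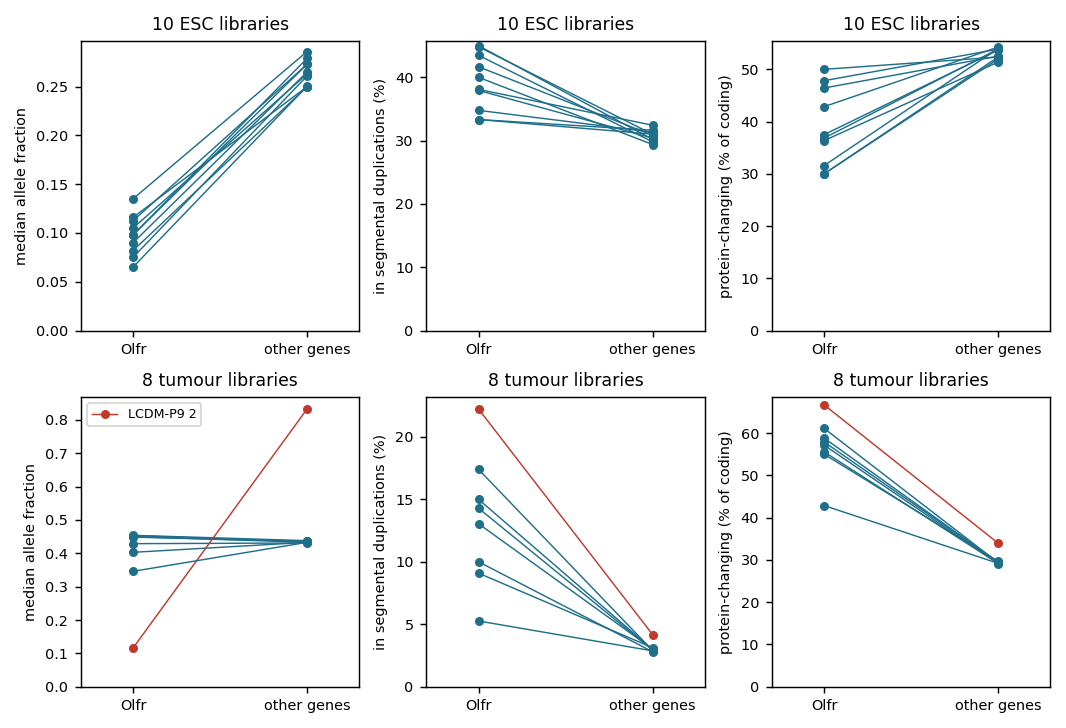
Olfr calls (left point of each line) and calls of other genes (right point), with one line per library, for 10 ESC libraries (top) and 8 tumours (bottom). The panels show the median alternative-allele fraction, the percentage of calls in segmental duplications and the percentage of coding calls that change the protein; Olfr is lower in fraction in all 10 ESC libraries and higher in protein-changing share in all 8 tumours, LCDM-P9 tumour 2 being drawn in red.

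Of the 35 Olfr sites of the tumour lists, 24 had a dbSNP identifier and 11 had none. Of the 35, 2 were in all 8 tumours (5.71%), 14 in 7 (40%) and 11 in 1 tumour (31.4%). For sites of other genes these shares were 2.46%, 49.2% and 26.3%, so the same pattern ran through the lists. The blood control held 1 alternative read at 21 of the 35 sites, though each was deposited as somatic. At 4 sites (11.4%) the base lay in a segmental duplication, against 3.87% of the sites of other genes.

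Fractions formed 2 classes, divided here at a median of 0.3. In 13 sites listed in 7 or 8 tumours the median fraction was between 0.442 and 0.519, near the share of a heterozygous variant, and all 13 had a dbSNP identifier. They were 7 missense changes, 4 synonymous ones, the Olfr102 site in front of the reading frame and the Olfr287 intron site. All 13 were listed in each of 7 tumours, with median fractions of 0.479 in A2iL-P14, 0.471, 0.489 and 0.488 in A2iL-P9, 0.511 in LCDM-P9 tumour 1, 0.478 in 2iL-F-P9 and 0.438 in 2iL-P9. LCDM-P9 tumour 2 had 1 of the 13, A164T of Olfr750, at 0.418. The upper class held 3 more sites, each in 1 tumour, at fractions of 0.415 to 0.506, and 1 of these had a dbSNP identifier. Of the 19 sites of low median, 10 had a dbSNP identifier, and single fractions ran from 0.037 to 0.229.

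**Figure D5:**
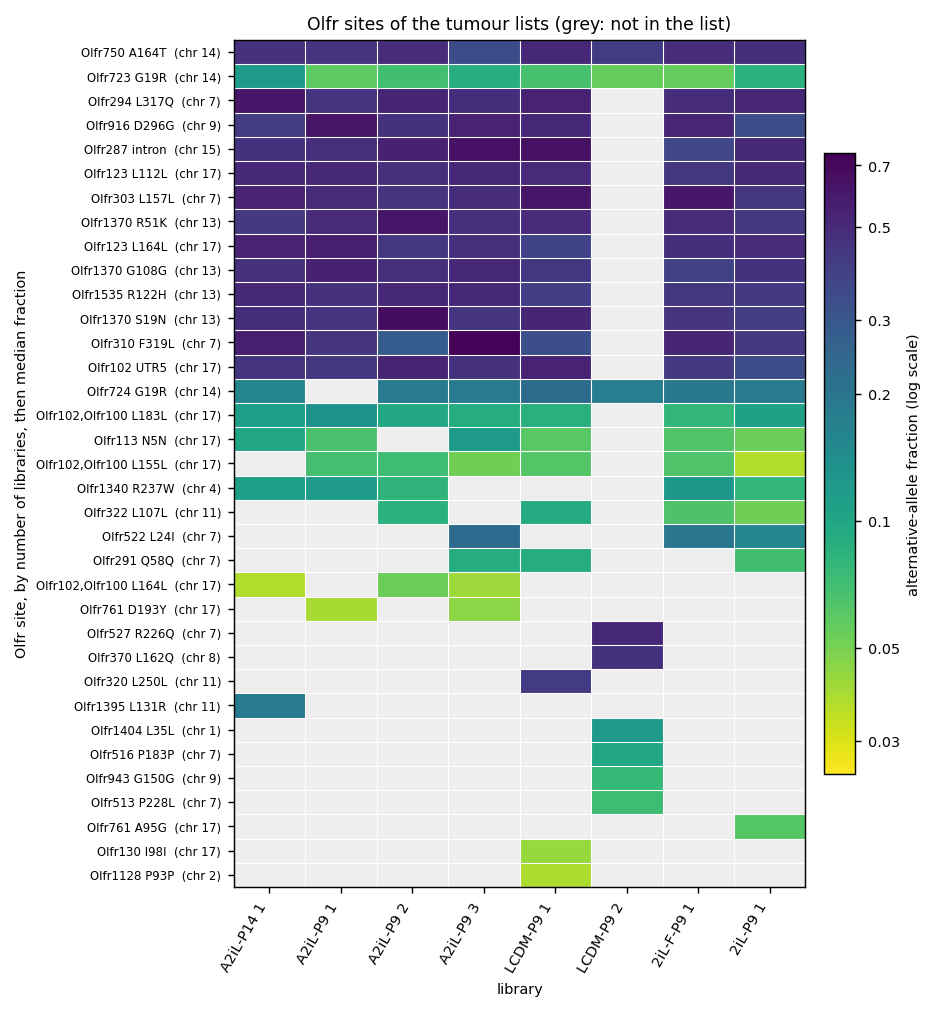
Alternative-allele fraction (colour, log scale) of the 35 tumour Olfr sites in the 8 tumours. Rows are sites, sorted by the number of tumours and then by median fraction, and grey means that the site is not in that list; the column of LCDM-P9 tumour 2 holds 9 sites, of which 6 are in no other tumour.

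Olfr1370 on chromosome 13 had 3 sites in the upper class, G108G, R51K and S19N, all within 268 bp and all listed in the same 7 tumours. Their fractions were 0.384 to 0.548, 0.420 to 0.615 and 0.405 to 0.672. R122H of Olfr1535, also on chromosome 13, had 0.403 to 0.514. Olfr123 on chromosome 17 had 2, L112L at 0.432 to 0.510 and L164L at 0.376 to 0.567. The tumour lists were not spaced, so several sites of a gene can stand together, as they did here.

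F319L of Olfr310 on chromosome 7 had the widest range of fractions among the tumour Olfr sites. It was at 14 of 25 reads in A2iL-P14, 8 of 18, 5 of 18 and 13 of 18 in A2iL-P9, 5 of 15 in LCDM-P9 tumour 1, 10 of 19 in 2iL-F-P9 and 9 of 21 in 2iL-P9. The fractions of the A2iL-P9 tumours, 0.444, 0.278 and 0.722, spanned those of all the others, and at this depth their Wilson intervals overlapped (0.125 to 0.509 for the lowest and 0.491 to 0.875 for the highest). Other wide ranges were those of D296G of Olfr916 (0.341 to 0.630) and S19N of Olfr1370. Among coding sites listed in 7 or 8 tumours the narrowest was that of L183L, named for Olfr102 and Olfr100 together, at 0.080 to 0.130.

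In Olfr723 and Olfr724, neighbours on chromosome 14 with sites 31.5 kb apart, the files reported the same change, G19R, under the same dbSNP identifier. Both sites lie in segmental duplications with an identity of 94.0%. The fraction in Olfr723 was 0.115 in A2iL-P14, 0.058, 0.070 and 0.090 in A2iL-P9, 0.067 and 0.055 in LCDM-P9, 0.056 in 2iL-F-P9 and 0.085 in 2iL-P9. In Olfr724 it was 0.155 in A2iL-P14, 0.188 and 0.182 in A2iL-P9 tumours 2 and 3, 0.225 and 0.176 in LCDM-P9, 0.191 in 2iL-F-P9 and 0.183 in 2iL-P9, with no call in A2iL-P9 tumour 1. Olfr724 was the higher in all 7 tumours that listed both. Reads of near-identical copies may be split between such genes by mapping, so both levels are uncertain.

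Olfr102 carried sites of both classes. The 5′ untranslated site c.-54G>A shown above had fractions of 0.346 to 0.544 in 7 tumours. The 3 synonymous coding sites that the files name for Olfr102 and Olfr100 together were lower, L183L at 0.080 to 0.130 in 7 tumours, L155L at 0.037 to 0.072 in 6 and L164L at 0.037 to 0.054 in 3. They lie within 82 bp of each other in Olfr102, and RefSeq's table places Olfr100 elsewhere on chromosome 17. N5N of Olfr113, the call in the second sequence above, had 0.054 to 0.116 in 6 tumours. R237W of Olfr1340 had 0.080 to 0.122 in 5.

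Of the 11 sites without a dbSNP identifier, 2 were in more than 1 tumour. L24I of Olfr522 was at 0.229 in A2iL-P9 tumour 3, 0.194 in 2iL-F-P9 and 0.156 in 2iL-P9, and D193Y of Olfr761 was at 0.039 and 0.045 in A2iL-P9 tumours 1 and 3. The highest fractions were in the LCDM-P9 tumours: R226Q of Olfr527 at 84 of 166 reads in tumour 2 (0.506, Wilson interval 0.431 to 0.581) and L250L of Olfr320 at 22 of 53 reads in tumour 1 (0.415, 0.293 to 0.549). The control held no alternative read in 173 and 156 reads there. L131R of Olfr1395 was at 5 of 27 reads in A2iL-P14.

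LCDM-P9 tumour 2 listed 9 Olfr sites, and 6 of them were in no other tumour. Besides R226Q of Olfr527 these were L162Q of Olfr370 at 0.457, the only one of them with a dbSNP identifier, L35L of Olfr1404 at 0.116, P183P of Olfr516 at 0.099, G150G of Olfr943 at 0.077 and P228L of Olfr513 at 0.072. Its other 3 sites were those of Olfr723, Olfr724 and Olfr750. The median fraction of its Olfr calls was 0.116, against 0.833 for its calls in other genes.

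One site of the 49 ESC and 35 tumour Olfr sites was listed in both sets, I98I of Olfr130 on chromosome 17 at 38067466. It was at 0.042 in LCDM-P9 tumour 1, on 6 reads, and at 0.038 in 2iL-F library 3 and 0.049 in SL library 3. Neither LCDM ESC library listed it. Neither the fibroblast control, at 151 reads, nor the blood control, at 158, held an alternative read. Over all genes and regions there were 4358 ESC and 15030 tumour sites but 19181 distinct ones, so the sets share other sites as well. Whether Olfr sites are shared more or less often than the rest was not tested.

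The number of Olfr calls overlapped between the tumour names. It was 20 in A2iL-P14, 19, 20 and 22 in A2iL-P9, 23 and 9 in LCDM-P9, 21 in 2iL-F-P9 and 23 in 2iL-P9. A2iL-P9 averaged 20.3 ± 1.53 (SD, n = 3) and the other P9 tumours 19 ± 6.73 (SD, n = 4), with an exact two-sided permutation p of 0.971. Without LCDM-P9 tumour 2 the difference of 1.33 became -2 (exact p = 0.2). As a share of gene-assigned calls A2iL-P9 had 0.210 ± 0.0128% (n = 3) and the others 0.235 ± 0.0141% (n = 4), exact p = 0.0857. The median fraction of the Olfr calls was 0.452 ± 0.00208 (n = 3) and 0.324 ± 0.143 (n = 4), exact p = 0.143, and the difference of 0.129 became 0.0597 without LCDM-P9 tumour 2 (exact p = 0.1). The smallest p is 0.0286 with 3 against 4 tumours and 0.1 with the 3 against 3 left without LCDM-P9 tumour 2, so that the last value is the lowest possible.

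Against other genes of the same tumour, Olfr calls changed the protein more often. The share was 56.9% for Olfr and 29.9% for other genes on average, higher in 8 of 8 tumours, and the exact sign-flip permutation p was 0.00781, the smallest that 8 libraries allow. Counted once per site it was 51.5% of 33 coding Olfr sites and 31.4% of 3555 others. Segmental duplications held 13.3% of the Olfr calls and 3.097% of the others, again higher in 8 of 8 (exact p = 0.00781). Counted once per site the shares were 11.4% and 3.87%. The Olfr share rests on 4 sites, with those of Olfr723 and Olfr724 in 8 and 7 tumours. Among calls with no alternative read in the control the difference in segmental duplications was -0.660 points (exact p = 0.828). That filter left 3 to 7 Olfr calls per tumour, and only LCDM-P9 tumour 1 kept any in a duplication. The median fraction was 0.387 and 0.484, with Olfr higher in 4 tumours and lower in 4 (exact p = 0.375), and the difference of -0.0966 became -0.00793 without LCDM-P9 tumour 2 (exact p = 0.75) and -0.254 among calls with no alternative read in the control (exact p = 0.0313). Coding Olfr calls were 1.70 to 2.36 times as deep as other coding calls (exact p = 0.00781). The tumours share many sites, so these sign-flip tests cover the spread over tumours and not over sites. ESCs and tumours were filtered differently before deposit and were not compared with each other.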

How the data were processed

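Per the file headers, each deposited line sets one SNV in a library beside the matching control and gives the authors' read counts per allele, depth and alternative-allele fraction, and an annotation of gene, consequence, segmental duplications, repeats and dbSNP. BWA, SAMtools, Picard and the build mm10 are listed in the submitters' processing notes, and no source used here names the caller. The deposited genotype strings were split into alternative reads, depth and fraction, and no read was reprocessed. Lines naming an Olfr gene outside intergenic sequence were kept. Positions are those of mm10, counted from 1, and protein changes are numbered on the first transcript listed. Conditions were compared by exact permutation tests, with Benjamini-Hochberg adjustment over the 5 conditions, and Olfr genes with other genes of a library by exact sign-flip tests, all run in Python 3.11.15 with numpy 2.4.6, pandas 2.3.3 and scipy 1.17.1, and tested on simulated data. Wilson intervals are at 95% and cover counting error only.

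The sites described were taken by a rule: stop changes, ESC coding sites in all libraries, sites restricted to 1 condition or library that change the protein, sites in both sets, tumour coding sites without dbSNP identifier, genes with most sites, and tumour coding sites of widest and narrowest fraction range. The members and lists were chosen with earlier results of these data known. The alternatives tried were a depth of at least 20 reads, exonic calls, no alternative read in the control, calls outside segmental duplications and repeats, leaving out each library, and a replicate block. Added after seeing the data were fractions of at least or under 0.1, each gene counted once, and coding calls of both.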

Additional observations from a re-analysis of the deposited data

How the results depend on the processing

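Over the alternatives and left-out libraries, 173 recomputed results kept their side of the 0.05 threshold and, where they had one, their direction. Another 5 reversed, 3 became significant and 2 lost significance without a reversal. The F tests have no direction. Many of the 173 could not change side when a library was left out. A difference with the same sign in every library keeps the smallest possible p, and 3 against 3 tumours cannot go below 0.1. The count is therefore no measure of robustness. Of the 5 that reversed, 2 also lost significance, which makes 4 lost calls. Among calls with a fraction of at least 0.1, the exact F test p of the ESC Olfr counts was 0.778 and that of the share 0.199, and the Jaccard difference was -0.00348. Requiring no alternative read in the control gave p = 0.037 for the ESC median fraction between conditions, turned the tumour difference in segmental duplications to -0.660 points, moved the tumour difference in median fraction to -0.254 (exact p = 0.0313) and turned the A2iL-P9 difference in calls to -0.75. That requirement left only 3 to 7 Olfr calls per tumour. Counting each gene once gave -0.333 for A2iL-P9. The cause of these changes was not tested.

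Leaving out each library gave p of 0.00317 to 0.00529 for ESC calls, 0.00106 to 0.00741 for the share and 0.0339 to 0.288 for the median fraction, the lowest without 2iL-F library 5. The Jaccard difference ranged from 0.0702 to 0.146, and that of A2iL-P9 in calls from -2, without LCDM-P9 tumour 2, to 2.67. With the label number as a replicate block, the exact p was 0.025 for ESC calls, 0.0167 for the share, 0.192 for the median fraction and 0.0333 for the Jaccard difference. The labels do not say whether same-numbered libraries share more than the number. Deviations of same-numbered libraries over the Olfr sites correlated at -0.583 to 0.363 between conditions, over 0.1 in 2 of 10 pairs of conditions. With 2 libraries per condition these values do not settle it. Depth limits the low-fraction sites, whose presence in a list can rest on a few reads, and the spacing of the ESC lists limits their sharing.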

Other observations

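Among all 21900 protein-coding genes of RefSeq, 7.201% were named for an ESC site and 15.6% for a tumour site. The list for olfactory transduction and receptor trafficking held 19 symbols, of which Adrbk2 and Grk3 name the same gene. In ESCs 2 genes had sites, all 3 of them intronic. Adrbk2, a kinase that acts on G-protein-coupled receptors, had 1. Ano2, the calcium-activated chloride channel of olfactory cilia, had 2. In tumours 2 genes had 15 sites, Ano2 and Pde1c, a calmodulin-dependent phosphodiesterase, of which 4 were coding and all 4 synonymous. Of 11 genes of receptor choice, none had an ESC site, and Kdm1a, a histone demethylase, had 1 intronic tumour site in 1 library at 0.079.

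Among other chemoreceptors, Vmn1r genes had 40 ESC and 34 tumour sites and Vmn2r genes 77 and 39, while Taar, Fpr, Ms4a and Gucy2d genes had none in either set. Taste receptors had tumour sites only: 3 in 1 Tas2r gene, 2 of them protein-changing, and 4 in 1 Tas1r gene, none protein-changing.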
